A study of Monodelphis domestica and Mus musculus with 2 samples.

Results

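Pcp4, Pcp4l1, Nrgn and Gap43 encode small proteins with a short IQ motif, a kind of motif that can bind calmodulin. Binding was not measured. These genes were followed here as transcripts through primary visual cortex (V1) of the gray short-tailed opossum (Monodelphis domestica) and the mouse. They were chosen by symbol, with case ignored, together with Gm49948, a mouse gene model that overlaps Pcp4 and is shown beside it. These make 5 genes. The opossum count table held 4 of them among 30613 features and no Gm49948, and the mouse table held all 5 among 61317. The genes were picked with their relation to cortical depth in these same cells already known, so the values by layer and depth are a description and carry no test.

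The data are Stereo-seq, in which a tissue section is placed on a chip whose capture spots carry position barcodes and transcripts are counted per segmented cell. The opossum group is 1 male adult of about 6 months, from a breeding colony with no treatment named, and the mouse group is 1 male wild-type C57BL/6J adult of about postnatal day 40. Each gave 1 cut of 10 µm through a block in which several coronal slices of the animal lay together. V1 columns were drawn by hand by the study, giving 3 opossum and 4 mouse regions, some of which share a slice. RNA integrity was 7.1 in the opossum block and above 9 in the mouse block. Species, integrity, age and annotation cannot be told apart, so values of the species stand side by side without a comparison.

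A cell was used if it lay in a V1 region, passed the column filter of the study and had at least 50 genes and 100 UMIs (unique molecular identifiers, counted transcripts). This left 4806 opossum and 9127 mouse cells, of 80369 and 120239 on the sections, with median UMIs per region of 1048 to 1503 and 1259 to 1343. No cell barcode was shared by the sections. Subclass and class names are the deposited labels, which the study gave each cell from its nearest neighbors in single-nucleus data over the same counts. Class was assigned apart from subclass, so the opossum Pvalb label held 354 cells and the whole GABAergic class 331. Levels are UMIs per 10000 UMIs summed over cells, with exact Poisson intervals at 95% that cover counting error only. Regions of 1 animal are not replicates, and their range is given as the spread.

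Calmodulin is the main calcium sensor of neurons, and an IQ motif can hold it without calcium. Pcp4 (PEP-19) speeds calcium exchange on calmodulin and marks deep-layer and other projection neurons, and Pcp4l1 is its close relative. Nrgn (neurogranin) is a dendritic protein of forebrain pyramidal neurons that releases calmodulin when calcium rises or when protein kinase C phosphorylates its motif. Gap43 (neuromodulin) carries the same kind of motif in growing axons and presynaptic endings.

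The coding bases of the motif are shown because they define the family and place Gm49948 within it. They were read from the mouse genome GRCm39 with GENCODE annotation, 5′ to 3′ on the coding strand, and capitals mark the codons of the conserved residues at positions 1, 2, 6 and 11 of the motif.
Pcp4 and Gm49948: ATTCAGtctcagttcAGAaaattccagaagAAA
Pcp4l1: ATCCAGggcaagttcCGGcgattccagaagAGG
Nrgn: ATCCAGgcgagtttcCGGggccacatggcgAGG

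The Pcp4 stretch lies at chr16:96326664-96326696 on the plus strand, in exon 4 of 4 of the canonical transcript. The same bases belong to exon 9 of 9 of Gm49948. The Pcp4l1 stretch lies at chr1:171001973-171002005 on the minus strand, in exon 3 of 3. That of Nrgn lies at chr9:37457357-37457389 on the minus strand, in exon 2 of 4. Each stretch is coding sequence within 1 exon. Pcp4 and Pcp4l1 were the most alike of these, with 7 of 11 residues and 22 of 33 bases shared. Nrgn shared 5 residues with Pcp4l1 and 4 with Pcp4. The pattern of conserved residues alone is common, since 1969 of 21593 annotated mouse proteins (9.12%) held it, and 14 of the 667 proteins of up to 100 residues (2.10%).

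Pcp4 differed in kind between the tables. In the opossum, PCP4 (ENSMODG00000020967) had 4 UMIs in V1, all in a single cell labelled Sst in region 3. The 3 regions held 0, 0 and 4 UMIs. The glutamatergic class held 0 of 5476632 UMIs, and the exact 95% interval ends at 0.00674 per 10000. Over the whole section PCP4 had 40 UMIs in 33 cells. So few UMIs give no profile by layer, and no fold was computed. Low counts of this kind were common in this table, where 37.5% of all features and 11.9% of the 11598 features with a gene symbol had fewer than 5 UMIs in V1. These counts do not show that the gene is silent in the tissue.

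In the mouse, Pcp4 (ENSMUSG00000090223) had 5509 UMIs in V1, 4.40 per 10000 (95% 4.28 to 4.52), and the 4 regions gave 4.25, 4.41, 4.55 and 4.50. Its highest levels were in the layer 6 labels L6CT and L6b, and not in L6IT. The L6CT label, corticothalamic neurons of layer 6, held 7.43, with regions at 6.70, 8.51, 8.14 and 7.30. The L2/3 label, upper intratelencephalic neurons, held 2.23, with regions at 2.45, 2.01, 1.62 and 2.44. The lowest L6CT region lay above the highest L2/3 region, and the fold was 3.33 (95% 2.99 to 3.73).

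Among the other glutamatergic labels of the mouse, L4 lay near L2/3 and the rest lay higher. L4 cells were at 2.45, next to L2/3, and the regions of these labels overlapped. L6IT, L5PT, L5IT and L5NP cells were at 4.74, 5.17, 5.35 and 5.61, and their ranges over regions overlapped. L6b cells had the highest value, 8.45, but from 26 cells and 31 UMIs, with regions from 5.30 to 22.1, so they cannot be placed above L6CT. Outside the glutamatergic labels, oligodendrocytes were at 6.21 (regions 5.24 to 7.54), above L6IT cells in the pooled value. Astrocytes were at 3.46 and Pvalb cells at 3.16.

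**Figure D1:**
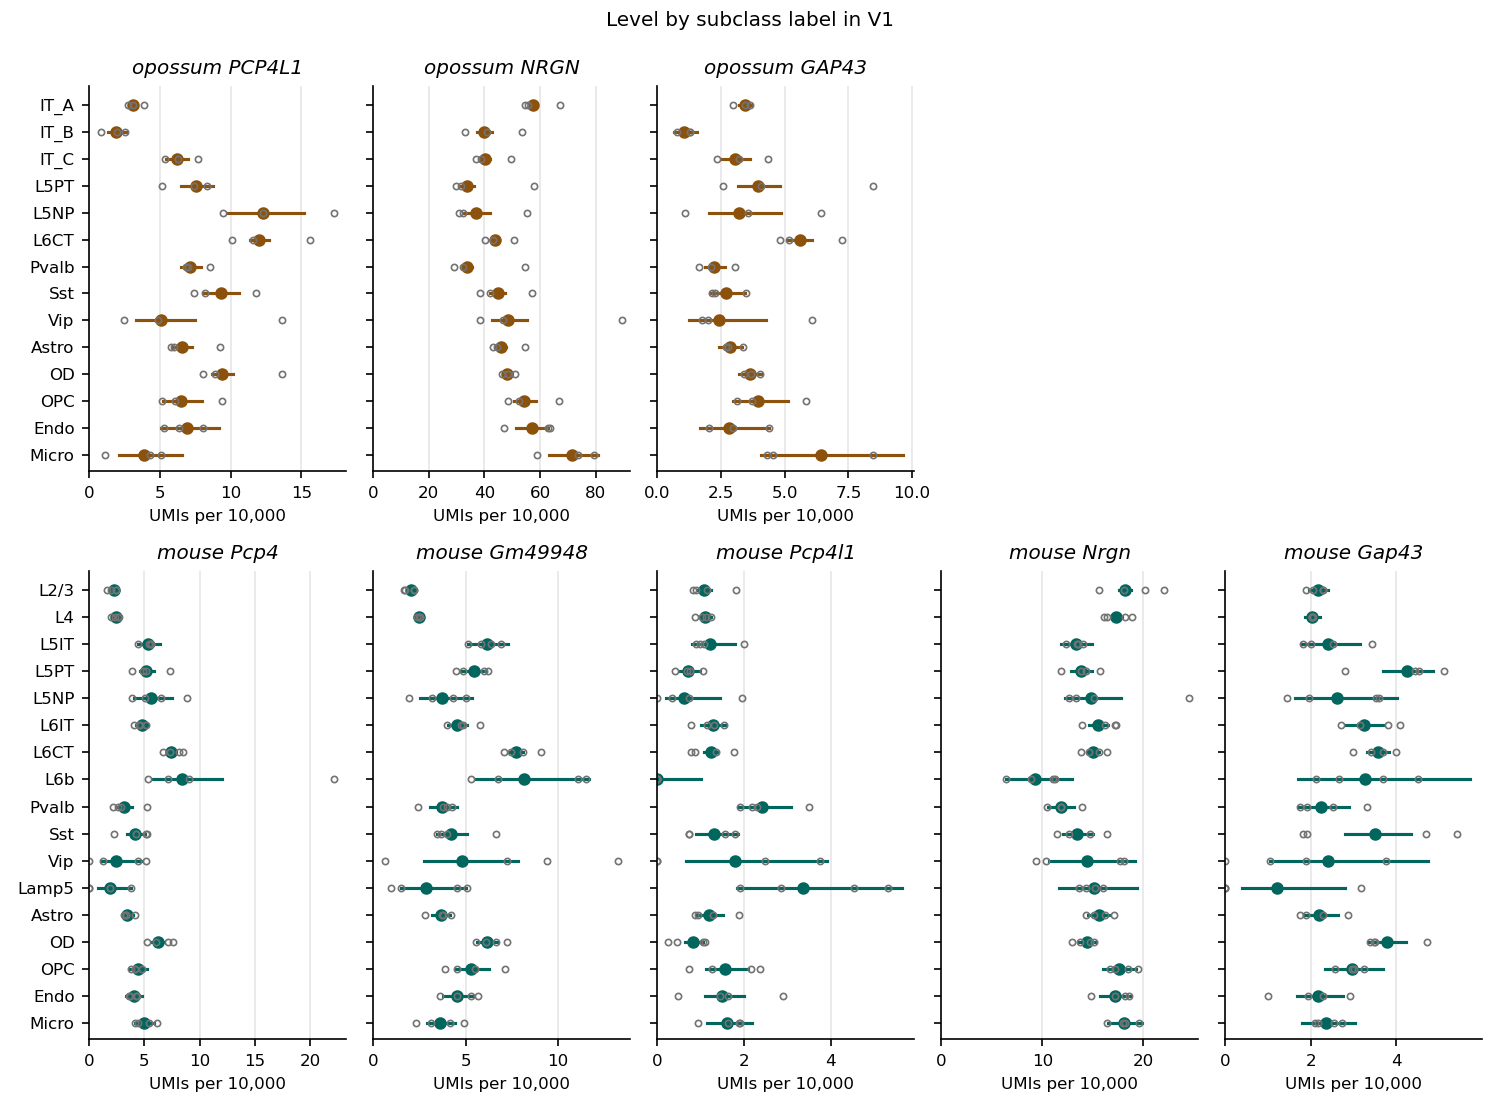
Level of each gene (UMIs per 10000) by subclass label, in the opossum and the mouse, with filled points for the pooled V1 value, lines for its exact 95% interval and open points for the single V1 regions. Among the well-filled labels, mouse Pcp4 and Gm49948 and opossum PCP4L1 are highest in L6CT. Nrgn is highest among glutamatergic labels in IT_A and L2/3.

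Gm49948 (ENSMUSG00000117081) gave nearly the same picture as Pcp4. Its annotation spans chr16:96162994-96326780 on the plus strand and is tagged as a readthrough from Igsf5 into Pcp4, which lies at chr16:96268806-96326997. Of its 9 exons, 7 lie within exons of Igsf5 and 2 within exons of Pcp4, and the last exon shares 191 bases with Pcp4. The Pcp4 model ends 217 bases farther downstream. Reads over the shared exons could belong to either model, so each count alone is uncertain.

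The UMIs were divided almost evenly between the models. Gm49948 had 5524 UMIs beside the 5509 of Pcp4, a share of 50.1% (exact Clopper-Pearson 95% 49.1% to 51.0%), and the share by region was 50.4%, 51.1%, 49.3% and 49.5%. Over the 17 subclass labels it ran from 40% in L5NP to 66.7% in Vip, on 75 and 24 UMIs. Microglia, at 42.2% (35.6% to 49.1%), were the only label whose interval left out an even split, among 17 intervals. Of 3037 cells with a Pcp4 UMI and 2902 with a Gm49948 UMI, 1852 had both. Igsf5, whose exons make up the rest of Gm49948, had 6 UMIs in V1. Gm49948 levels in L6CT and L2/3 were 7.73 and 2.03, a fold of 3.80 (3.39 to 4.27), with all 4 regions in the same direction.

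**Figure D2:**
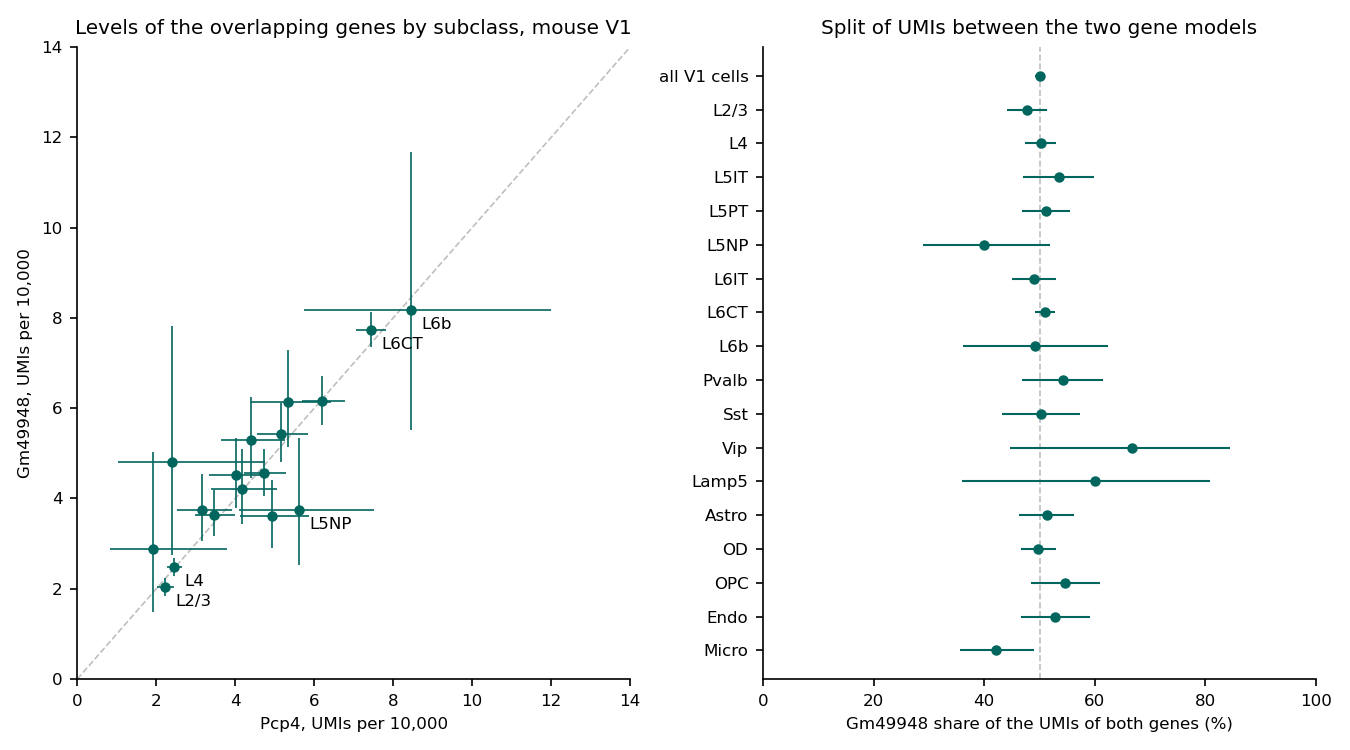
Levels of Pcp4 and Gm49948 (UMIs per 10000) against each other by subclass label in mouse V1, with a dashed line of equal levels, and the share of Gm49948 among UMIs of both in percent, each with exact 95% intervals. The share sits near 50.1% in nearly all labels, and the interval of microglia (35.6% to 49.1%) ends below an even split.

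Mouse Pcp4 was also higher toward the bottom of V1 when cells were placed by depth alone. Relative depth runs from the top of a region to its bottom and was cut into 10 equal bins. Mouse Pcp4 stayed between 1.38 and 1.89 in the upper 4 bins. It was 3.68 in bin 5 and 5.40 in bin 6, and then higher in each bin down to 7.78 at the bottom. Gm49948 ran from 1.57 at the top to 8.01 at the bottom with its lowest value, 1.36, in bin 3. Split into 3 equal depth parts, the upper part of Pcp4 gave 1.95, 0.984, 1.10 and 1.48 in the 4 regions, and the lower part gave 6.32, 7.82, 7.59 and 7.11. The groups of values did not overlap, and the pooled fold was 4.65 (4.26 to 5.09). Region 1 had the highest upper value and the lowest lower value, so its own fold, 3.24, was the smallest of the 4.

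**Figure D3:**
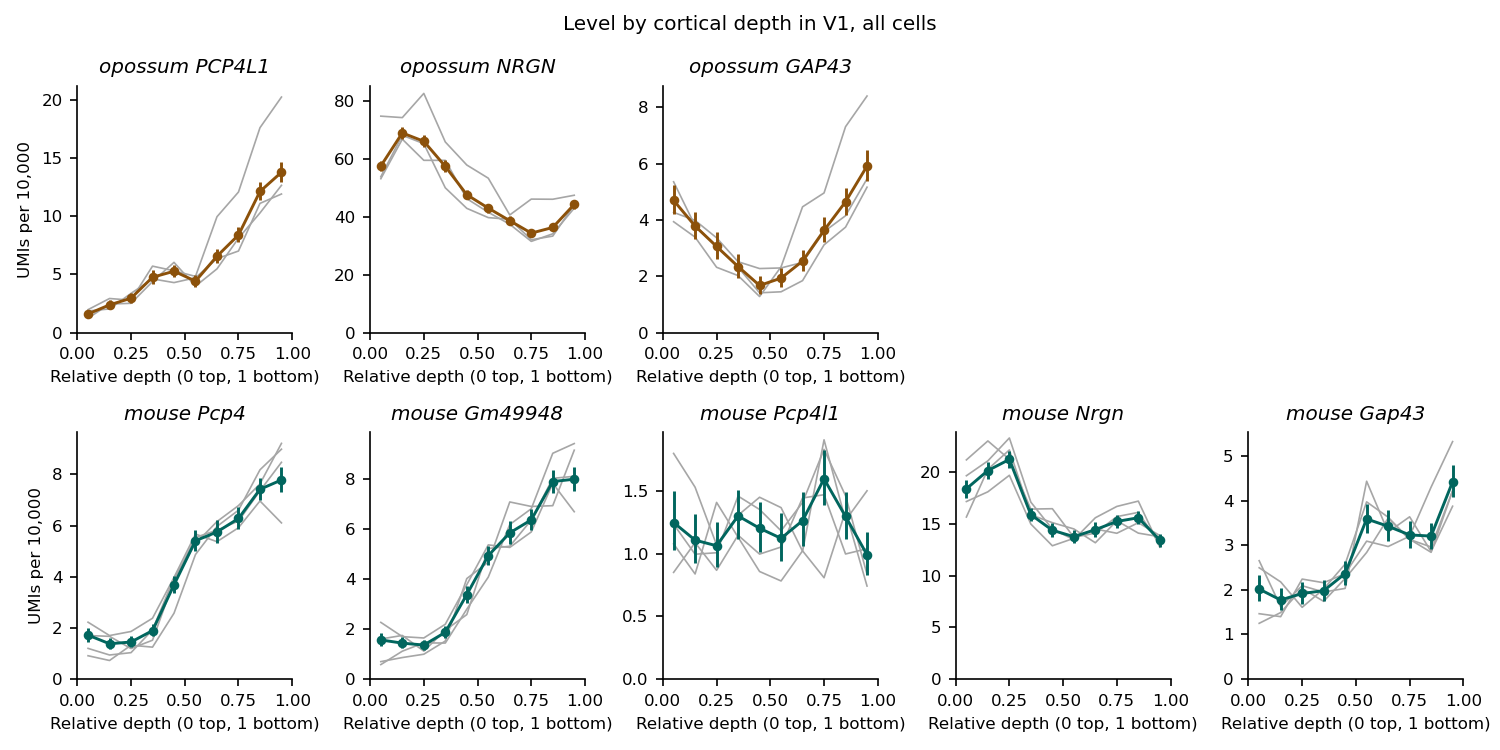
Level of each gene (UMIs per 10000) in 10 equal bins of relative depth from the top to the bottom of V1, with grey lines for the regions and colored points with exact 95% intervals for all cells of a species. Mouse Pcp4 goes from 1.72 to 7.78, opossum PCP4L1 from 1.60 to 13.8, and mouse Pcp4l1 stays between 0.991 and 1.60.

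In the opossum PCP4L1 (ENSMODG00000027512) showed the graded deep-layer profile. It had 4550 UMIs in V1, 6.56 per 10000 (6.37 to 6.76), with regions at 6.02, 6.01 and 8.77. L6CT cells held 12.0, with regions at 10.1, 11.6 and 15.6, and IT_A cells, the upper intratelencephalic label of the opossum, held 3.08, with regions at 3.07, 2.73 and 3.89. The regions did not overlap, and the fold was 3.91 (3.56 to 4.29). L5NP cells, 39 in number, were at 12.3 and overlapped L6CT over regions, but Tshz2, the marker of this label, had 0 UMIs in them, and the name rests on the deposited label alone.

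The other glutamatergic labels of the opossum lay between or below these. IT_B cells were at 1.89 (regions 0.800 to 2.52), IT_A at 3.08, IT_C, the deep intratelencephalic label, at 6.18 (5.37 to 7.71) and L5PT at 7.55 (5.16 to 8.35). IT_B and IT_A did not overlap over regions, whereas IT_C and L5PT did. Sst cells were at 9.28, oligodendrocytes at 9.41, Pvalb cells at 7.15, and astrocytes at 6.58. By depth, PCP4L1 went from 1.60 in the top bin to 13.8 in the bottom bin, with a lower value in bin 6 (4.42) than in bin 5 (5.27). The upper depth part gave 2.72, 2.11 and 2.81 in the 3 regions and the lower part 9.84, 9.88 and 16.4. The fold was 4.44 (4.04 to 4.88), and every lower value was above every upper value. Region 3, which had the fewest UMIs per cell, was the highest of the 3 in the lower part.

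Mouse Pcp4l1 (ENSMUSG00000038370, chr1:171000246-171023837) had no such profile. It had 1530 UMIs, 1.22 per 10000 (1.16 to 1.28), and its depth bins ranged from 0.991 to 1.60. The L6CT label held 1.23, with regions at 1.37, 0.882, 1.78 and 0.786, and L2/3 held 1.08, with regions at 0.906, 1.15, 1.82 and 0.830. The values overlapped, the fold was 1.14 (0.938 to 1.38), and L6CT was above L2/3 in 1 region of 4. Without region 1 the log2 fold was -0.09 in place of 0.18.

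The mouse labels that stood highest for Pcp4l1 were GABAergic. Lamp5 cells were at 3.36 (95% 1.84 to 5.64, 35 cells) and Pvalb cells at 2.43 (1.88 to 3.09), with Pvalb regions from 1.91 to 3.50. Sst cells, at 1.32, were near the glutamatergic labels. L5PT cells were at 0.721, and the 26 L6b cells had 0 UMIs, with an exact 95% interval that ends at 1.01 per 10000. The GABAergic class held 2.12 and the glutamatergic class 1.10, a fold of 0.516 for glutamatergic over GABAergic (0.434 to 0.617), below 1 in 4 of 4 regions. This was the 194th lowest of 10454 genes with at least 100 UMIs over these classes. In the opossum the same fold of PCP4L1 was 0.785 (0.710 to 0.869), below 1 in 3 of 3 regions.

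The opossum GABAergic level depended on depth. In the upper depth part GABAergic cells held 5.13 and glutamatergic cells 2.35, a ratio of 2.18 (1.59 to 2.94). In the middle part the ratio was 1.79 (1.54 to 2.08). In the lower part it was 0.854 (0.722 to 1.00), with 1 of 3 regions above 1. So GABAergic cells stood above glutamatergic cells where the latter were low, and not at the bottom. For mouse Pcp4l1 the upper, middle and lower ratios were 1.72, 2.30 and 1.71, above 1 in 3, 4 and 2 of 4 regions.

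Of the members with enough UMIs for a fold, 1 of 3 in the opossum (PCP4L1) was at least 2-fold higher in L6CT than in IT_A, where 2.4% of 6338 genes were. In the mouse 2 of 5 (Pcp4 and Gm49948, which share bases) were at least 2-fold higher in L6CT than in L2/3, where 1.09% of 7124 genes were. PCP4L1 was 39th from the highest and Pcp4 31st. For the lower over the upper depth part the counts were again 1 of 3 and 2 of 5, beside 2.62% of 7586 and 1.39% of 10105 genes, and the ranks were 31st and 16th. The genes were chosen on this pattern, so nothing is read from these counts.

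Nrgn ran the other way in depth in both species. Opossum NRGN (ENSMODG00000003764) had 33575 UMIs, 48.4 per 10000 (47.9 to 48.9), with regions at 46.7, 45.3 and 58.3. It was 57.7 in the top bin, highest in bin 2 at 69.1, lowest in bin 8 at 34.4, and 44.4 at the bottom. The upper depth part gave 59.8, 61.2 and 77.0 in the 3 regions and the lower part 36.7, 36.5 and 46.6. The parts did not overlap, and the fold of lower over upper was 0.604 (0.588 to 0.620). Region 3 was the highest in each part.

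Mouse Nrgn (ENSMUSG00000053310, chr9:37452275-37464689) had 20261 UMIs, 16.2 per 10000 (16.0 to 16.4), with regions from 15.4 to 17.0. Its level was highest in bin 3, at 21.2, was 13.8 to 15.9 from bin 4 to bin 9, and was 13.4 at the bottom. The upper part gave 18.0, 20.1, 21.0 and 21.1 and the lower part 14.5, 14.2, 15.2 and 15.5. These did not overlap either, with a fold of 0.754 (0.729 to 0.779).

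By label, glutamatergic cells of the upper layers held the most Nrgn among the glutamatergic labels. Opossum IT_A cells were at 57.4 (regions 54.6 to 67.2), above L6CT at 43.9 (40.1 to 50.7), IT_C at 40.2, IT_B at 39.8, L5NP at 37.0 and L5PT at 33.9. The highest L6CT region lay below the lowest IT_A region, and the fold of L6CT over IT_A was 0.765 (0.739 to 0.792). Mouse L2/3 cells were at 18.2 (15.6 to 22.0) and L4 cells at 17.3, beside 15.1 in L6CT (13.8 to 16.4), 13.3 in L5IT and 9.27 in L6b. The fold of L6CT over L2/3 was 0.828 (0.788 to 0.870), below 1 in 4 of 4 regions, although the ranges over regions overlapped.

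The lower level of the L6CT label was not seen at that size within a depth part. Most cells labelled L6CT lay in the lower part, 463 of 568 in the opossum and 1031 of 1242 in the mouse. Most IT_A and L2/3 cells lay in the upper part. Each ratio thus rests on cells placed away from most of their label, and whether those labels are right was not tested. In the opossum upper part the 45 cells labelled L6CT held 80.4 of NRGN and IT_A cells 63.2, a ratio of 1.27 (1.14 to 1.42), above 1 in 3 of 3 regions. Those 45 cells had median UMIs of 838, beside 1427 in the IT_A cells of that part. In the lower part the ratio was 0.965 (0.888 to 1.05), with 0 of 3 regions above 1 and a range of 0.931 to 0.980. In the mouse, L6CT over L2/3 was 1.23 (1.07 to 1.41) in the upper part and 1.16 (0.972 to 1.39) in the lower part, on 86 and 79 cells of the rarer label. None of these 4 intervals held the fold over all depths.

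Nrgn also differed between classes within a depth part, in the same direction in each part. In the opossum, GABAergic cells held less NRGN than glutamatergic cells in the upper, middle and lower depth parts, by ratios of 0.664 (0.600 to 0.732), 0.653 (0.609 to 0.700) and 0.649 (0.588 to 0.716), each below 1 in 3 of 3 regions. In the mouse the ratios were 0.820, 0.831 and 0.823, below 1 in 4, 3 and 3 of 4 regions. These ratios use the class label, and not every opossum GABAergic subclass label was low over all depths. Pvalb cells were at 33.9, but Sst cells were at 44.7 and the 38 Vip cells at 48.6, beside 43.9 in L6CT and 57.4 in IT_A. Non-neuronal cells lay closer to glutamatergic cells, with upper-part ratios of 0.925 (0.869 to 0.984) in the opossum and 1.01 (0.944 to 1.08) in the mouse. Single non-neuronal labels could be as high as neurons: opossum microglia, 32 cells, were at 71.7 and endothelial cells at 56.9.

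Gap43 had a U-shaped profile in the opossum and a step in the mouse. Opossum GAP43 (ENSMODG00000018184) had 2434 UMIs, 3.51 per 10000 (3.37 to 3.65), with regions at 3.52, 3.17 and 4.19. It was 4.70 in the top bin, 1.67 in bin 5 and 5.92 in the bottom bin, and all 3 regions had their lowest value in bin 5. The lower over upper fold, 1.22 (1.11 to 1.33), came from opposed regions: 3.72, 4.19 and 3.12 in the upper part and 4.32, 3.87 and 6.75 in the lower. Region 2 was lower below, and without region 3 the fold was 1.04.

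The opossum labels followed this shape. IT_B cells, which lie in the middle, were lowest at 1.04 (regions 0.776 to 1.29). IT_A cells were at 3.43 (2.97 to 3.62) and L6CT cells at 5.59 (4.81 to 7.24), and the 3 labels did not overlap over regions. The fold of L6CT over IT_A was 1.63 (1.46 to 1.82). In the lower part alone it was 1.46 (1.12 to 1.94), above 1 in 3 of 3 regions, and in the upper part 1.19 (0.708 to 1.87). These values rest on 95 lower cells labelled IT_A and 45 upper cells labelled L6CT, whose labels were not checked. GABAergic labels were low, with Pvalb at 2.23 and Sst at 2.68, and the 32 microglia had the highest value, 6.41 (regions 4.30 to 8.44).

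Mouse Gap43 (ENSMUSG00000047261) had 3531 UMIs, 2.82 per 10000 (2.73 to 2.91), with regions from 2.57 to 2.95. It was between 1.77 and 2.36 in bins 1 to 5, 3.59 in bin 6 and 4.42 at the bottom. The upper part gave 2.04, 2.02, 1.71 and 1.82 and the lower part 3.44, 3.41, 3.32 and 4.17, with no overlap and a fold of 1.86 (1.71 to 2.03). The highest label was L5PT, the pyramidal tract neurons of layer 5, at 4.25 (regions 2.81 to 5.11). L5PT was above L5IT, at 2.39, by 1.78-fold (1.30 to 2.46), in the same direction in 4 of 4 regions. L6CT was at 3.56 (2.98 to 3.98), L2/3 at 2.17 (1.89 to 2.29) and L4 at 2.03. L6CT was 1.64-fold (1.45 to 1.86) above L2/3, and the regions of these labels did not overlap. Within a depth part no difference between them was detectable, with a ratio of 0.912 (0.665 to 1.28) in the lower part and 1.04 (0.614 to 1.65) in the upper part. These ratios rest on 79 lower cells labelled L2/3 and 86 upper cells labelled L6CT, whose labels were not checked.

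Levels of mouse Pcp4 and opossum PCP4L1 differed by depth within a label as well as between labels. Among mouse cells of the lower depth part, Pcp4 was 7.94 in L6CT, 7.28 in oligodendrocytes, 5.73 in the 79 cells labelled L2/3, 5.64 in L6IT and 4.85 in astrocytes. In the upper part the 86 cells labelled L6CT held 2.03, L2/3 cells 1.53 and astrocytes 1.53. The fold of lower over upper was 3.91 (2.49 to 6.51) within L6CT and 4.02 (3.21 to 5.11) within non-neuronal cells. Whether the upper cells labelled L6CT and the lower cells labelled L2/3 carry the right label was not tested.

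Within the lower depth part, L6CT stayed above L6IT in the mouse and above IT_C in the opossum. The part is 1 of 3 equal cuts of V1, so depth was not matched inside it. Over all depths, mouse L6IT_A cells lay at a median of 575 µm and L6CT_B cells at 665 µm. Opossum IT_C cells of cluster 4 lay at 532 µm and L6CT cells of cluster 2 at 700 µm. What depth inside the part adds to the ratios was not tested. In the lower part L6CT held 1.41 times (1.23 to 1.62) the Pcp4 of L6IT, above 1 in 4 of 4 regions, and 1.56 times (1.36 to 1.79) for Gm49948. Against oligodendrocytes the Pcp4 ratio was 1.09 (0.978 to 1.22). In the opossum lower part PCP4L1 was 13.0 in L6CT, 12.3 in oligodendrocytes, 10.7 in the 95 cells labelled IT_A, 10.4 in astrocytes, 8.94 in Pvalb and 7.02 in IT_C. L6CT held 1.85 times (1.58 to 2.17) the level of IT_C, above 1 in 3 of 3 regions, and 1.05 times (0.949 to 1.17) that of oligodendrocytes. The 45 upper cells labelled L6CT had 6 UMIs, 1.49 per 10000.

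**Figure D4:**
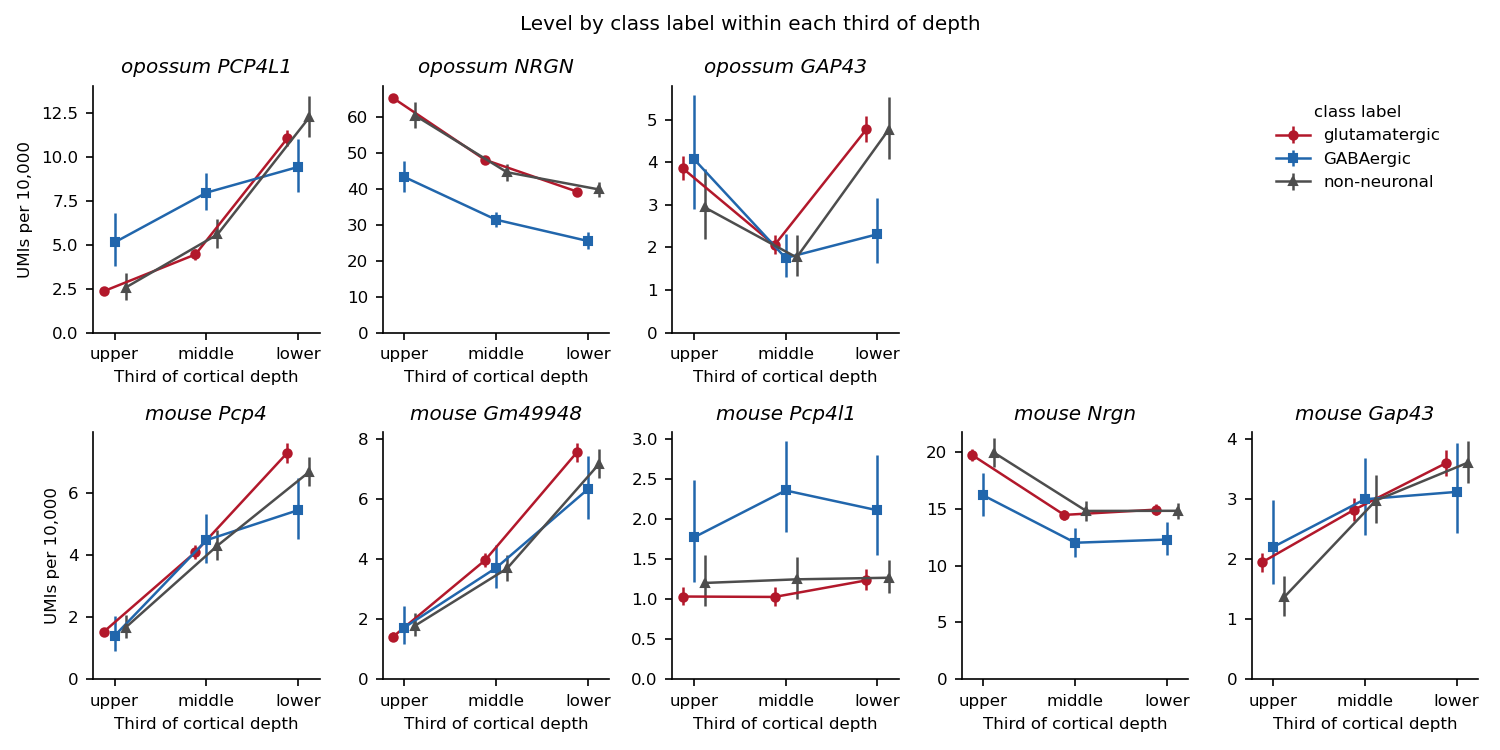
Level of each gene (UMIs per 10000) in the glutamatergic, GABAergic and non-neuronal classes in the upper, middle and lower depth parts of V1, with exact 95% intervals. Non-neuronal cells follow the glutamatergic class closely, as for mouse Pcp4 at 6.69 beside 7.30 in the lower part. In pooled values the GABAergic class lies below for opossum NRGN and above for mouse Pcp4l1.

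Over all depths, glutamatergic over non-neuronal cells gave folds close to 1. In the opossum they were 0.807 for PCP4L1, 1.10 for NRGN and 1.13 for GAP43. In the mouse they were 0.860 for Pcp4, 0.849 for Gm49948, 0.879 for Pcp4l1, 1.04 for Nrgn and 0.937 for Gap43. Mouse Gap43 was farther from 1 in the upper part, where non-neuronal over glutamatergic cells gave 0.700 (0.536 to 0.901), with 0 of 4 regions above 1. Between single labels there, it was 1.96 in L2/3 and 0.844 in astrocytes. That ratio was 2.33 (1.41 to 4.13) on 285 and 16 UMIs, with regions from 1.15 to 8.99.

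Neuronal markers were about as high in astrocytes and oligodendrocytes as in neurons. Slc17a7, the vesicular glutamate transporter of cortical excitatory neurons, was 9.58 in mouse L2/3 cells, 9.56 in astrocytes and 11.7 in oligodendrocytes, and Snap25, a synaptic protein of neurons, was 24.0, 24.5 and 22.7. In the opossum Snap25 was 28.5 in IT_A, 26.5 in astrocytes and 30.5 in oligodendrocytes. Foxp2, a marker of L6CT, was highest where it belongs, at 4.72 in opossum and 1.89 in mouse L6CT against at most 0.967 and 0.568 elsewhere. Rprm, a further L6CT marker, was highest in mouse L6CT at 4.63, but in the opossum it was 0.411 in L6CT and highest in L5PT at 3.18. Transcripts of neighboring cells in a segmented cell, and their part in the member levels of non-neuronal labels, were not tested.

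Within a subclass, levels also differed between finer labels. The 69 opossum IT_A cells of cluster 4, at a median depth of 385 µm, held 7.04 of PCP4L1, whereas clusters 1 and 3, at 152 and 156 µm, both held 2.68. Cluster 5, 64 cells at 363 µm, held 2.24 on 27 UMIs, and cluster 6, 61 cells at 362 µm, held 4.02. Cluster 4 was also the label of 205 IT_C cells, at 6.51, and cluster 5 that of 111 IT_B cells, at 1.87. The IT_A cells of clusters 4 and 5 thus carry cluster labels more common in other subclasses, and are not read as finer IT_A types. Among mouse L6CT types, L6CT_B held more Pcp4 than L6CT_C, 7.94 (7.29 to 8.63) beside 5.34 (4.15 to 6.77), although L6CT_C lay deeper. Gap43 was the reverse, 2.85 (2.47 to 3.28) beside 4.32 (3.26 to 5.62). For Nrgn, L4_C cells were at 13.5 (11.8 to 15.4) and L4_B cells at 18.5 (17.7 to 19.4).

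Elsewhere on the section the members parted ways. Opossum NRGN was 48.4 per 10000 inside V1 and 17.5 outside the drawn regions. In tiles of 200 µm with at least 20 cells, the 51 V1 tiles ran from 32.8 to 75.0 with a median of 46.8, and the 892 tiles outside had a median of 6.75 and a maximum of 81.9. PCP4L1 was 6.15 outside, near its V1 level of 6.56, and GAP43 was higher outside, at 4.21 beside 3.51 inside. In the mouse, Pcp4 was 2.98 outside and 4.40 inside V1, Nrgn 12.7 and 16.2, and Gap43 3.66 and 2.82. Gap43 was thus the mouse member with the higher level outside, and 28.2% of the 979 outside tiles exceeded the highest of 61 V1 tiles, at 4.47.

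Mouse Pcp4l1 was low in most tiles outside V1, with a median of 0.927, but 30 tiles exceeded the highest V1 tile of 2.22 and the highest reached 9.41. Across the 979 outside tiles Pcp4 and Gm49948 had a Pearson r of 0.903, while Pcp4 and Pcp4l1 had -0.03. These tiles share 1 library and neighbors share tissue, so the values describe this section.

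**Figure D5:**
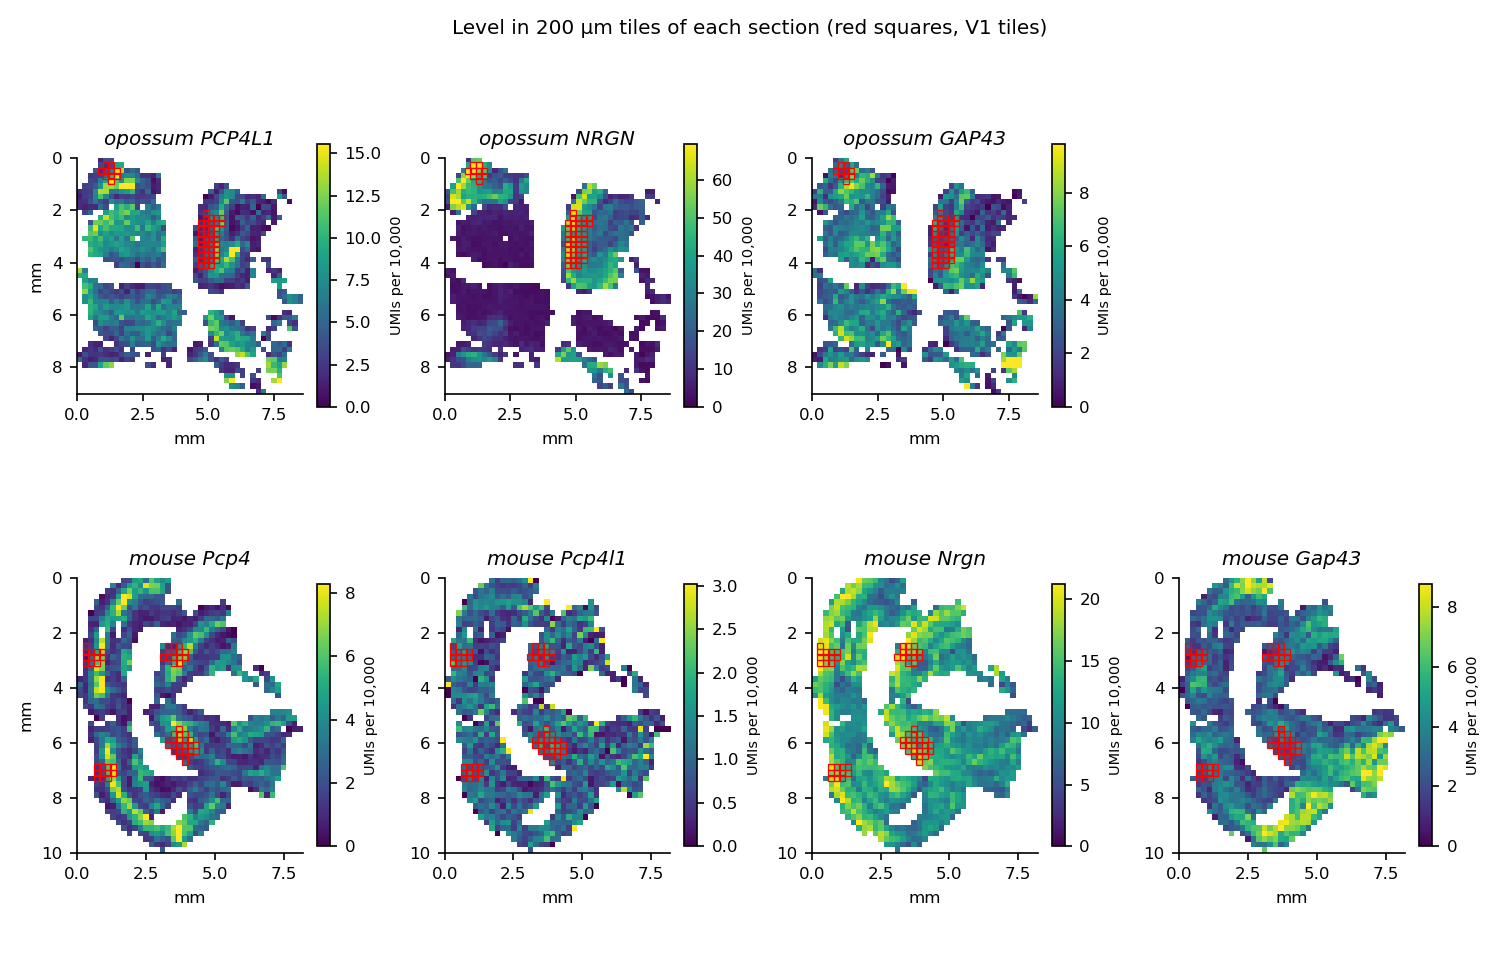
Level of members (UMIs per 10000) in tiles of 200 µm over each section, with axes in mm, red squares for V1 tiles and color scales that end at the 99th percentile of each map. Opossum NRGN is high in V1 and in tiles beside it and low in most other tiles (median outside 6.75), and mouse Pcp4l1 has scattered tiles above the V1 maximum of 2.22.

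The wider set of calmodulin genes, a list of 50 that holds calmodulins, CaM kinases and their inhibitors, calcineurin, protein kinase C and other IQ or calmodulin-binding proteins, did not share the deep profile. In the opossum 14 had no feature with their symbol and 33 had enough UMIs. Only 11598 of the 30613 opossum features have a symbol, and those without were not searched, so the 14 may be present unnamed. Of these, 1 was at least 2-fold higher in L6CT than in IT_A, Camk2g, a CaM kinase II subunit, at 3.61 beside 1.34 (2.68-fold). There were 3 at least 2-fold lower: Rgs7, a regulator of G protein signaling, by 2.43-fold, Adcy8, a calmodulin-activated adenylyl cyclase, by 2.19-fold, and Itpka, an inositol trisphosphate kinase, by 2.19-fold. These shares, 3.03% and 9.09%, stand beside 2.4% and 4.12% of all genes.

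In the mouse 49 had enough UMIs, 0 were 2-fold higher in L6CT than in L2/3, and 6 were 2-fold lower, 12.2% beside 1.78% of all genes. The 6 were Camk2d (2.56-fold), Prkca (2.52-fold), Rgs7 (2.50-fold), Camk2n2 (2.10-fold), Camk2n1 (2.05-fold) and Cacna1c (2.02-fold). Camk2n1 and Camk2n2 encode inhibitors of CaM kinase II, Prkca a protein kinase C, and Cacna1c an L-type calcium channel. The median log2 fold of the list was -0.08 in the opossum and -0.02 in the mouse, beside 0.02 for all genes in each. Rgs7 was past 2-fold in the same direction in both. Camk2d, Camk2n1 and Camk2n2 could not be read in the opossum, where Camk2d and Camk2n1 had no feature with their symbol and Camk2n2 had 0 UMIs in these labels. The list was drawn up with earlier results of these data known.

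Likeness of profile was measured as Pearson r over log2(UMIs per 10000 + 1) of the subclass labels, 14 in the opossum and 17 in the mouse, among genes with at least 500 UMIs. These points share a library and neighboring cells, so the values describe it. Opossum PCP4L1 was most like EEF2 (0.85), IDH3A (0.83) and MDH1 (0.82), followed by a gene without symbol and CAMK2G (0.80). NRGN was nearest to genes without symbols and to CDK5R1 (0.91), ACTB (0.88) and SEC14L2 (0.86), and GAP43 to SNX10 (0.88), with PLPPR4 (0.83) and CHRM3 (0.82) also among its first 5.

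Mouse Pcp4 was most like 3110035E14Rik, B3galt2 and Stmn1 (0.84 each) and Gm49948 (0.83), and Gm49948 most like Pcp4. Pcp4l1 was nearest to Smap1, Astn1, Sptb, Ndufb11 and Sars, from 0.85 to 0.87. Nrgn was nearest to Enc1, Rbm26, Arl4d, Stx6 and Tjp1, from 0.84 to 0.85, and Gap43 to Rpl38 (0.89), Pgam1, Atp5c1, Prkcb and Got1. Among the members themselves, mouse Pcp4 had r = 0.74 with Gap43 and -0.68 with Pcp4l1, and opossum PCP4L1 had -0.33 with NRGN and 0.40 with GAP43.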

How the data were processed

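Stereo-seq libraries were made from 1 cut each through frozen blocks of coronal slices from 1 opossum and 1 mouse. Counts were deposited by the authors as raw UMIs per gene and segmented cell, made with the Stereo-seq Analysis Workflow (SAW) in its adjusted cell-bin format, one table per animal. The mouse reference was GRCm39. For the opossum the authors aligned to a custom annotation whose 3′ gene ends were extended. V1 columns, quality flags and labels came from the deposited metadata, also by the authors.

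From these counts, UMIs were summed per label, depth bin or region in Python 3.11.15 with numpy 2.4.6, scipy 1.17.1 and pandas 2.3.3, and figures were drawn with matplotlib 3.10.9. Cells needed 50 genes and 100 UMIs, labels 25 cells, and genes 100 UMIs over both groups for a fold. Median UMIs per V1 cell were 1326 and 1305, and the passing cells of the sections held 84501975 and 147846003 UMIs. Doublets were not called. With 1 animal per species no test was run, and no p-value is given. Depth came from the smallest rectangle around a region.

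The members and the list of calmodulin genes were chosen with earlier results of these data known. Genes named are the members, genes of that list past 2-fold, markers, genes overlapping Pcp4 or Gm49948, and the 5 most alike per member. The fold calculation was tested on simulated data, where 200 changed genes passed 2-fold in 100% (opossum, 6414 genes) and 99.5% (mouse, 7218 genes), and 0.0161% and 0.0285% of the others did. Alternatives were stricter and no cell filters, thinning to 300 UMIs, means over cells, first-round labels, other depth bins and leaving out each region. Opossum locus sequence and protein sequences were not used here. Some further items are not reported here.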

Additional observations from a re-analysis of the deposited data

How the results depend on the processing

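The folds of L6CT over upper intratelencephalic cells, of lower over upper depth and of glutamatergic over non-neuronal cells were recomputed under each alternative. Of 77, 77 and 66 such values, 74, 76 and 61 moved by less than the spread between regions. The single change of sign was mouse Pcp4l1 in L6CT over L2/3, whose log2 fold of 0.18 ran from -0.09 to 0.29 when 1 region was left out. Values with 1 region left out are part of these counts and could hardly move past the spread between the same regions. With labels of the first round only, the L6CT over IT_A log2 fold was 2.50 for PCP4L1 (1.97 with all labels) and -0.59 for NRGN (-0.39). Thinning to 300 UMIs gave 0.89 for mouse Gap43 in L6CT over L2/3 (0.72), and for glutamatergic over non-neuronal -0.24 for PCP4L1 (-0.31), 0.20 for NRGN (0.13) and -0.37 for mouse Pcp4 (-0.22). Means over cells gave -0.21 for PCP4L1 and 0.20 for NRGN in that comparison, and -0.70 for NRGN in lower over upper depth (-0.73). The causes were not tested. Leaving out 1 region gave 1.89 to 2.11 for PCP4L1 and 1.63 to 1.94 for Pcp4 in L6CT over upper cells, 2.02 to 2.35 and 2.08 to 2.63 in lower over upper depth, and 0.05 to 0.54 for opossum GAP43 in the latter. With 5 depth bins the bottom over top log2 fold was 2.71 for PCP4L1 (3.11 with 10) and -0.65 for NRGN (-0.38). The Gm49948 to Pcp4 ratio was recomputed only with 1 region left out, and 72 of 72 values kept within the spread between regions. Such values could hardly move past that spread, so nothing is read from this count. No paired analysis was possible because each species is 1 sample. Depth limits the smaller labels, such as L6b and Lamp5 in the mouse and L5NP, Vip and microglia in the opossum, and opossum PCP4 at 4 UMIs.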
